A study of Mus musculus with 4 samples.

Results

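The data described here are the difference between 2 responses to tumour necrosis factor (TNF): that of mouse embryonic fibroblasts without Xiap and that of wild-type fibroblasts. The difference of response is log2(TNF-treated / unstimulated) in knockout cells minus the same ratio in wild-type cells, taken per gene. It was computed for 10833 probe sets with 1 gene symbol, which stand for 8251 genes, all genes named in the series. There are 4 groups of 1 array each. They are wild-type cells left unstimulated, wild-type cells given 20 ng/ml TNFa for 4 hours, XIAP knockout cells left unstimulated, and XIAP knockout cells given the same TNFa dose for the same time. All cultures were grown in the same medium and serum, and treated cultures were confluent when TNF was added. The labels name no strain, sex, embryo or passage number, and do not say whether the cells of a genotype came from 1 line or several. With 1 array per group the difference uses all 4 arrays, so no test, no error and no replicate check is possible, and every value below describes these 4 cultures. Genotype and any other way in which these cultures differed cannot be told apart, and in bulk RNA more cells of a type and more RNA per cell cannot be told apart.

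TNF binds its receptor on the cell surface and assembles a complex of adaptors, kinases and ubiquitin ligases, which activates the transcription factor NF-kB and mitogen-activated protein kinases. In fibroblasts these induce chemokines, adhesion molecules, cytokines and immediate early genes, the fast-acting transcription factors of a stimulus. A slower layer of interferon-inducible genes usually follows. NF-kB also induces its own inhibitors, which limit the response. XIAP, the X-linked inhibitor of apoptosis protein, blocks caspases and is a ubiquitin ligase.

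The same difference results when log2(knockout / wild-type) without TNF is subtracted from log2(knockout / wild-type) with TNF. A gene can therefore differ in its response because the genotypes started apart, because they ended apart, or through some of each. Of 8251 genes, 6174 were above the signal floor of 92.5 on at least 1 array (counted as measured) and 5130 on all 4. A gene was called at a 2-fold difference or more (1 on the log2 scale). The response was larger in knockout cells for 156 genes (2.53% of measured genes) and smaller for 70 (1.13%), 226 in all (3.66%). The source was the starting level where the genotypes differed at least 2-fold without TNF and less than 2-fold with it, which held for 40 genes (0.648%). It was the TNF-treated level in the reverse case, for 88 genes (1.43%). Both states were past 2-fold for 17 genes (0.275%). In the other 81 (1.31%) neither was, because 2 smaller ratios of opposite sign added up. Starting-level genes were thus 17.7% of the called genes (25.9% with the floor at the 20th percentile, 25.7% at the 60th).

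**Figure D1:**
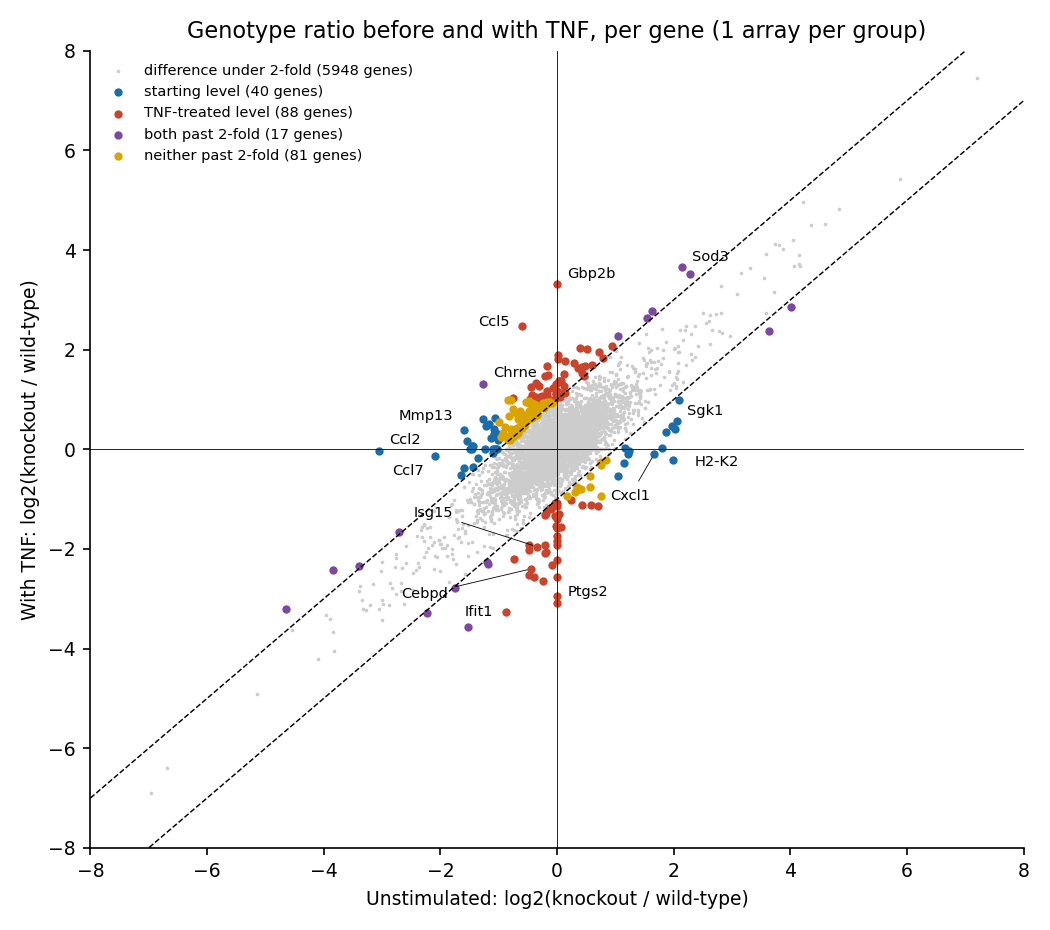
Log2(knockout / wild-type) without TNF on the horizontal axis and with TNF on the vertical axis, 1 point per measured gene, coloured by the source of a 2-fold difference of response; the dashed lines mark that difference. The 40 starting-level genes lie along the horizontal line through 0, the 88 TNF-treated-level genes along the vertical line, and grey points are genes under a 2-fold difference.

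Differences of signal at the start and at the end were both more frequent than called differences of response. Without TNF, knockout cells had 276 genes higher by 2-fold or more (4.55% of genes measured in that comparison) and 285 lower (4.70%). With TNF, 329 were higher (5.62%) and 293 lower (5.01%). Of the 561 genes that started apart, 206 (36.7%) were within 2-fold after TNF, but only 57 had a called difference of response. In the reverse direction, 622 genes were apart with TNF, of which 267 (42.9%) were within 2-fold without it and 105 were called. Among genes that TNF raised at least 2-fold in either genotype, 40 started apart and 21 of these (52.5%) were within 2-fold with TNF.

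With the arrays scaled as deposited, a larger response was in most cases not a stronger rise. TNF raised 156 genes at least 2-fold in wild-type cells (2.64%) and lowered 154 (2.61%), against 87 raised (1.48%) and 24 lowered (0.409%) in knockout cells. In 80 of the 156 genes with a larger response, the signal fell at least 2-fold in wild-type cells and stayed within 2-fold in knockout cells. The knockout signal rose at least 2-fold in 17 of them, and in 59 neither genotype passed 2-fold. In 54 of the 70 genes with a smaller response, by contrast, wild-type cells rose, 45 of them with knockout cells within 2-fold and 9 with a rise in both. No gene rose at least 2-fold in one genotype and fell at least 2-fold in the other. These counts depend on the scaling. The median wild-type response was -0.07 as deposited, 0.16 with equal medians and -0.02 with quantile normalization. Larger responses with a wild-type fall were fewer under both of the other scalings, as given below.

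**Figure D2:**
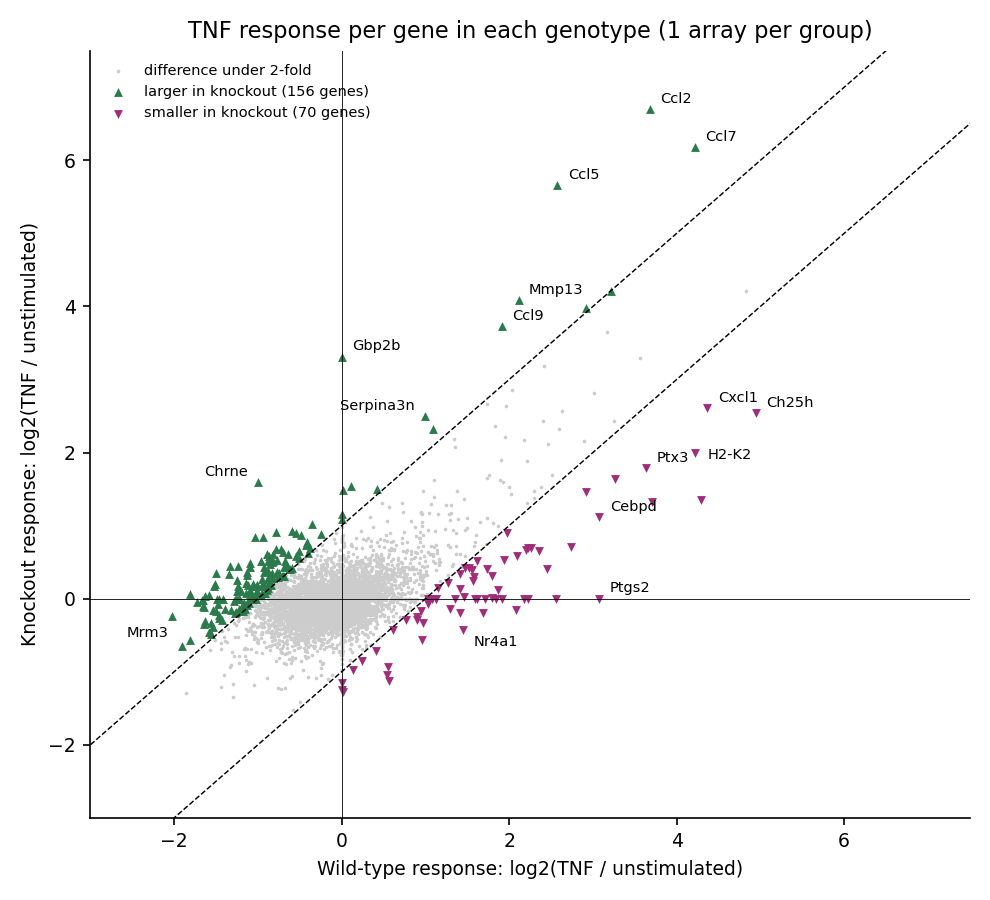
Log2 response to TNF in wild-type cells (horizontal axis) and in knockout cells (vertical axis) for each measured gene, with dashed lines at a 2-fold difference. Most of the 70 genes with a smaller response in knockout cells lie to the right, among genes that rose in wild-type cells. Most of the 156 with a larger response lie to the left of 0, among genes that were lower with TNF in wild-type cells. The arrays are scaled as deposited, and other scalings shift the wild-type response.

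Signals below are given in the order wild-type unstimulated, wild-type with TNF, knockout unstimulated, knockout with TNF, and a difference is that of the log2 responses. Probe sets have different affinities, so signals of different genes are not compared.

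Chemokines, secreted proteins that attract leukocytes, were the list with the highest median difference among those with more than 10 measured members. Of 13 measured members 5 had a larger response and 2 a smaller one, against 2.53% and 1.13% of all measured genes. The median difference was 0.82, against 0.04 over all measured genes. Of the 177 genes that TNF raised at least 2-fold in either genotype, 9.60% had a larger and 30.5% a smaller response. The monocyte attractant Ccl2 had signals of 1439, 18414, 173 and 18083. It rose 12.8-fold in wild-type and 104-fold in knockout cells, a difference of 3.03, although the 2 TNF-treated signals lay close together. Its neighbour in function Ccl7, also a monocyte attractant, had 406, 7577, 94.7 and 6875, a difference of 1.96. For both genes the knockout culture started lower and ended level with the wild-type, so the source was the starting level. With the floor at the 60th percentile the difference of Ccl2 was 2.28, but that of Ccl7, whose lowest signal lay just above the floor, was 0.34. The neutrophil attractant Cxcl1 showed the opposite order at the start, with 153, 3157, 486 and 2956 and a difference of -1.76. Its other measured probe set gave -2.42, and with the floor at the 60th percentile the difference was -0.84. Knockout cells thus started higher for Cxcl1 and, again, ended level.

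The remaining 4 called chemokines did not follow that pattern. The T cell attractant Ccl5 had 140, 835, 9.50 and 4665, a difference of 3.08, and with TNF it was higher in knockout than in wild-type cells. Its unstimulated knockout signal was below the floor, so the difference is a lower bound and the starting level may count as well. The T cell attractant Cxcl10 went the other way, with 51.3, 1810, 4.10 and 235. Both its unstimulated signals were below the floor, and without a floor its difference of -2.94 turned to 0.70. Ccl9 and Cxcl5 were outside the rule for named genes and chosen after their values were seen. Ccl9 had 182, 684, 102 and 1353 (difference 1.82), and neither state reached 2-fold between genotypes. With the floor at the 60th percentile its difference was 0.98. Cxcl5 had 25.4, 196, 191 and 950 (1.23), higher in knockout cells in both states. Its unstimulated wild-type signal was below the floor, and without a floor the difference turned to -0.63. With a floor at the 20th percentile 21 chemokines were measured, 7 larger and 4 smaller, and the median fell to 0.21. At the 60th percentile 3 of 9 were larger and 1 smaller.

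Other genes with a larger response from the starting level included a protease and a phosphatase. The collagenase gene Mmp13 had 348, 1506, 115 and 1960, a difference of 1.98 that was 0.64 with the floor at the 60th percentile. Dusp1, a phosphatase that inactivates mitogen-activated protein kinases, had 1377, 1388, 653 and 1840 (1.48). Dusp1 did not change 2-fold in wild-type cells, while the knockout culture rose from a lower start. In Cyp7b1, an oxysterol hydroxylase, the signals were 287, 383, 106 and 300 (1.08), and its difference was 0.85 with equal medians and -0.35 with the floor at the 60th percentile. Those 3, with Ccl2 and Ccl7, are the 5 of 27 larger starting-level genes in which TNF raised the signal at least 2-fold in either genotype.

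In 18 of the 27 genes the wild-type signal fell instead. The Wnt receptor Fzd1 had 725, 284, 348 and 438 (difference 1.68). The Rab5 exchange factor Rin2, chosen after its value was seen, had 2151, 743, 1014 and 913 (1.38). In both, wild-type cells fell below the signal that the unstimulated knockout culture had. By definition all 27 started lower in knockout cells. Whatever the true values below the floor, the call and the source held for 16 of the 27.

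A smaller response from the starting level was found for 13 genes, and in all 13 neither the call nor the source depended on values below the floor. Raising the floor itself mattered more: 5 of the 13 kept their call under every scaling and floor tried. TNF raised 10 of them in wild-type cells. H2-K2, annotated as a class I histocompatibility gene, had 75.5, 1718, 369 and 1475, a difference of -2.21. Irgm1, an interferon-inducible GTPase of cell-autonomous immunity, had 141, 606, 516 and 773 (-1.52). In both, knockout cells were higher before TNF and the genotypes were within 2-fold with it. The kinase gene Sgk1 had 302, 1046, 1248 and 1555 (-1.48), and the smooth muscle cytoskeleton gene Smtn had 126, 388, 515 and 515 (-1.62). For Ginm1, a membrane protein gene, the signals were 76.4, 320, 323 and 326 (-1.78). In Smtn and Ginm1 the unstimulated knockout signal was already level with the treated one. With the floor at the 60th percentile 4 of these genes lost the call, with differences of -0.56 (H2-K2), -0.48 (Irgm1), -0.42 (Smtn) and -0.13 (Ginm1), while Sgk1 kept it.

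Further genes of this kind were chosen after their values were seen. The stress kinase gene Plk2 had 1621, 5379, 3784 and 5005 (-1.33). The matricellular gene Ccn1 had 360, 1074, 849 and 1045 (-1.28). Ptpn1, a tyrosine phosphatase gene, had 803, 1959, 1787 and 1623 (-1.43). In all 3 the genotypes lay within 2-fold of each other with TNF, and knockout cells did not rise 2-fold. The transcription factor gene Runx1 differed, with 318, 465, 1239 and 647 (-1.49): here the knockout signal came down and the wild-type one did not rise 2-fold.

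**Figure D3:**
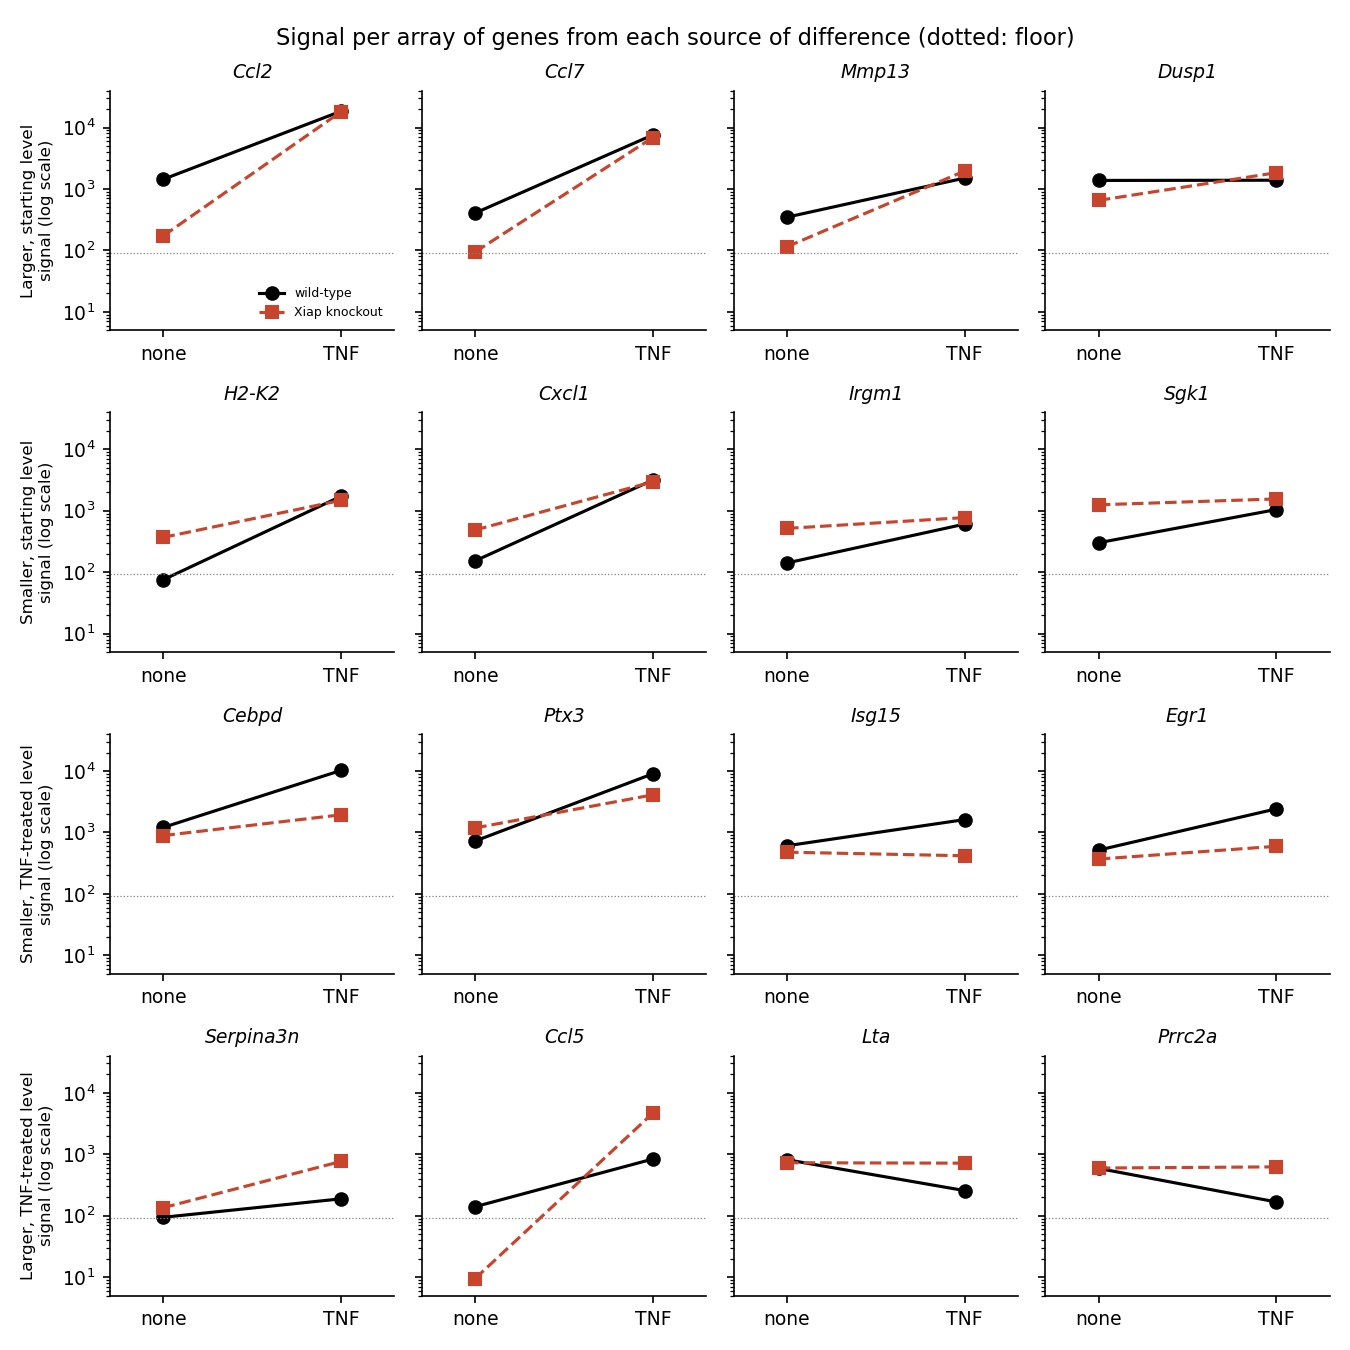
Signals (log axis) of 4 genes for each of 4 sources of difference, without and with TNF, in wild-type (circles, solid line) and knockout cells (squares, dashed line); every point is 1 array and the dotted line is the floor of 92.5. In the upper pair of rows the genotypes start at least 2-fold apart and end within 2-fold, and in the lower pair the reverse holds once signals are raised to the floor, which matters for Ccl5.

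Promoters of some genes whose signals met and of some whose signals parted are shown with their matches to short motifs. They run from 250 bases before to 50 after the start site, are taken from RefSeq (GRCm38.p6) and are printed 5′ to 3′ in the direction of transcription. Of 72 named genes, 56 were matched in that table. Capitals mark matches, on either strand, to the NF-kB forms GGGNNTTTC and GGAANTTCC, the interferon-stimulated response element GAAANNGAA, the AP-1 site TGANTCA, the C/EBP site TTGCNNAA or the TATA box TATAAA. Matches can overlap, as the 2 NF-kB forms do in Cxcl1.
Cxcl1 promoter, chr5:90890995-90891294, plus strand: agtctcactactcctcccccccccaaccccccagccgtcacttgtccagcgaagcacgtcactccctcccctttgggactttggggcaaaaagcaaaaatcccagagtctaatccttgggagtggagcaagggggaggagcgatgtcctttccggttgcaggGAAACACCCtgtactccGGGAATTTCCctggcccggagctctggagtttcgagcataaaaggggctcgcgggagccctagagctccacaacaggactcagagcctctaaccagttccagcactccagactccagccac
Irgm1 promoter, chr11:48871371-48871670, minus strand: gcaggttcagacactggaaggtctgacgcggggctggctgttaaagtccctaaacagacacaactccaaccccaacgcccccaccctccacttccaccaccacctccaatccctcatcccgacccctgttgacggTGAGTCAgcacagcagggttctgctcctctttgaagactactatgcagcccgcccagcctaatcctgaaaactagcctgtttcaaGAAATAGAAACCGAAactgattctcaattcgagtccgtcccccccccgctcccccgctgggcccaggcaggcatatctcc
Mmp13 promoter, chr9:7272264-7272563, plus strand: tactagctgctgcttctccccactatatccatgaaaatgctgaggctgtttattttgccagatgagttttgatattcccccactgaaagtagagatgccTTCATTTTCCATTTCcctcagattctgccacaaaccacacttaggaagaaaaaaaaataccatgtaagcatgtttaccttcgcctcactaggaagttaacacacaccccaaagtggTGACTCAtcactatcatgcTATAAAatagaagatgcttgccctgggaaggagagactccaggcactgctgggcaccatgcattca
Isg15 promoter, chr4:156200769-156201068, minus strand: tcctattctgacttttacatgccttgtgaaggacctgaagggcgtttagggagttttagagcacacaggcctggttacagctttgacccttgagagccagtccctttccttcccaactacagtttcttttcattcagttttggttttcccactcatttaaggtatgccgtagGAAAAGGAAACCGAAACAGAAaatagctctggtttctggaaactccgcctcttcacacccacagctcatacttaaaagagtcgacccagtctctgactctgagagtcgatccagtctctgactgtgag
Ifit1 promoter, chr19:34640639-34640938, plus strand: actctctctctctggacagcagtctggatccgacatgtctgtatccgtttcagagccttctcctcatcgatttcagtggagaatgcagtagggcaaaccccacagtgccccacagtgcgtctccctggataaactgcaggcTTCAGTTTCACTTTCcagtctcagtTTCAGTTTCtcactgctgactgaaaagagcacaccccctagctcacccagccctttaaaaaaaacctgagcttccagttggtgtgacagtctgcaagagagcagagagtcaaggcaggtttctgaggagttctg
Ptx3 promoter, chr3:66219637-66219936, plus strand: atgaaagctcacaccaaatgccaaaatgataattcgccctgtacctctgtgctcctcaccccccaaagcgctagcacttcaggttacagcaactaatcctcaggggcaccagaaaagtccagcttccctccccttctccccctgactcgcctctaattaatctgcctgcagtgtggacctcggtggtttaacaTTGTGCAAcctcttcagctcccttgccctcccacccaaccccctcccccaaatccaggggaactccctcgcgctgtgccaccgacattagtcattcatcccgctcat
The Cxcl1 capitals are NF-kB matches, those of Isg15 and Ifit1 are interferon-stimulated response element matches, and Ptx3 holds a C/EBP match. Irgm1 holds an AP-1 match upstream of 2 response element matches. Mmp13 holds 2 response element matches, then an AP-1 match and a TATA box. Among the promoters printed, only the response element form is in genes of both kinds. Ifit1 counts as parted through the floor, since its unstimulated knockout signal lay below it.

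A match describes letters in a window and is neither a binding site nor a cause. All shares leave out chromosome 18. The response element form was present in 8.56% of all promoters searched, 6.52% of those of measured genes and 18.1% of those of genes that TNF raised in either genotype. NF-kB form 1 stood at 4.36%, 4.42% and 13.6% in the same order, form 2 at 0.928%, 1.10% and 5.08%, and AP-1 at 7.81%, 5.63% and 13.6%. The C/EBP form was at 10.8%, 8.43% and 14.7%, and the TATA box at 13.6%, 8.01% and 16.4%. Among raised genes with a smaller response, the starting-level and the TNF-treated-level genes had the response element in 28.6% and 17.6% of promoters and NF-kB form 1 in 14.3% and 2.94%. These last shares rest on 14 promoters of 9 genes and 34 promoters of 25 genes, and NF-kB form 1 was in 2 and 1 of them. Promoters of the same gene were counted separately, and Sgk1 alone supplied several of the 14.

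The TNF-treated level was the source for 39 of the 70 genes with a smaller response, and TNF raised 35 of the 39 in wild-type cells. Immediate early genes had more calls than any other list. Of 26 measured members none had a larger response and 10 a smaller one, against 2.53% and 1.13% of all measured genes. The median difference was -0.49. The source was the TNF-treated level for 7, the starting level for 2 (Plk2 and Ccn1) and neither state for 1, Zfp36l1. In wild-type cells 14 members rose at least 2-fold and in knockout cells 4 did. Of the 177 genes on the arrays that TNF raised in either genotype, 30.5% had a smaller and 9.60% a larger response. With equal medians 12 members of the list were smaller, and with quantile normalization 10 were smaller and 1 larger. With the floor at the 60th percentile 7 of 24 were smaller, 4 of them from the TNF-treated level, and at the 20th 10 of 26.

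Among transcription factors of that list, Nr4a1, an orphan nuclear receptor, had 171, 466, 151 and 112, a difference of -1.87. Egr1 and Myc, chosen after their values were seen, had 518, 2427, 370 and 596 (-1.54) and 259, 766, 266 and 314 (-1.33). The early gene Ier2, chosen likewise, had 781, 2239, 724 and 970 (-1.10). All 4 genes started within 2-fold between genotypes and rose at least 2-fold in wild-type but not in knockout cells. Fos, a subunit of AP-1, had 122, 549, 46.6 and 49.7 (-2.17). Both knockout signals of Fos were below the floor, so the call of Fos depends on it. With the floor at the 60th percentile Nr4a1 was at -0.68, and Egr1 was at -0.77 when all its probe sets were averaged.

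Cebpd, a C/EBP transcription factor of the acute-phase response, had 1211, 10227, 891 and 1938, a rise of 8.45-fold in wild-type and 2.17-fold in knockout cells and a difference of -1.96. Pentraxin Ptx3, a soluble pattern-recognition protein, had 727, 9014, 1186 and 4097 (-1.84). Knockout cells started higher and ended lower for Ptx3. The hyaluronan synthase gene Has2 had 109, 462, 103 and 80.1 (-2.24). Rgs16, a brake on G protein signalling, had 178, 574, 155 and 136 (-1.88), and its other probe set gave -1.33. Has2 and Rgs16 did not rise in knockout cells, and with the floor at the 60th percentile their differences were -0.67 and -0.98.

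Interferon-inducible antiviral genes showed 5 smaller and no larger responses among 15 measured members (median difference -0.48). Over all measured genes 1.13% were smaller and 2.53% larger, and over the 177 genes that TNF raised in either genotype 30.5% and 9.60%. Under equal medians and under quantile normalization 6 of the 15 were smaller. With the floor at the 20th percentile 3 of 19 were smaller (median -0.30), and at the 60th 5 of 11. In wild-type cells 9 of the 15 rose at least 2-fold, against 1 in knockout cells. The ubiquitin-like modifier gene Isg15 had 608, 1619, 478 and 418, a difference of -1.61, with all 4 signals above the floor. In the other 4 of these genes at least 1 knockout signal was below the floor. Ifit1, an RNA-binding antiviral protein gene, had 170, 2230, 5.10 and 232 (-2.38). Without a floor its difference was 1.80, since its starting ratio then counts in full. Rsad2 had 9.30, 545, 8.0 and 10.0, and Slfn2 had 130, 868, 32.2 and 151. Rsad2 encodes the antiviral enzyme viperin, and its signal passed the floor in TNF-treated wild-type cells alone. Ifit3, chosen after its value was seen, had 268, 1461, 55.2 and 123 (-2.04) and was lower in knockout cells in both states.

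In the list of IRF, STAT and SOCS genes, signalling components downstream of interferons and cytokines, 2 of 21 measured members had a smaller response, against 1.13% of all measured genes. With equal medians 4 of 21 did. The feedback inhibitor Socs3 had 201, 533, 238 and 262 (-1.27, and -0.89 by its other probe set). The receptor-linked kinase gene Jak2 had 158, 725, 212 and 335 (-1.54). Both ended lower in knockout cells from a higher start. Socs3 was at -0.88 with the floor at the 60th percentile, and Jak2 at -0.77 when all its probe sets were averaged.

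Interferon-inducible GTPases were split, with 2 larger and 2 smaller of 9 measured, against 2.53% and 1.13% of all measured genes. Gbp2b had 5.60, 2.40, 21.7 and 918, so it was above the floor in TNF-treated knockout cells alone. Gbp3, chosen after its value was seen, had 154, 1430, 62.0 and 1720 (1.01), a difference of 0.72 with equal medians. Irgm1 and Iigp1 had smaller responses, and Iigp1 (12.7, 355, 14 and 134) depends on the floor; its other probe set gave -0.43. Guanylate-binding proteins and class I genes are multigene families, and whether relatives share hybridisation was not tested, so these values are uncertain. The probe sets of H2-K1 and H2-D1 had differences of -0.09 and -0.01, against -2.21 for H2-K2.

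Cyclooxygenase Ptgs2, which starts prostaglandin synthesis, had 23.3, 780, 57.3 and 85.8. Its signal was above the floor in TNF-treated wild-type cells alone. The oxysterol enzyme gene Ch25h had 109, 3355, 48.9 and 537, a rise in both genotypes, and ended lower in knockout cells. Interleukin Il6 had 5.80, 431, 3.10 and 33.7, above the floor on 1 array. The size of these differences is open because it depends on signals below the floor.

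A larger response from the TNF-treated level was found for 49 genes. TNF raised 5 of them at least 2-fold in knockout cells, while 28 fell in wild-type cells. The serpin gene Serpina3n, an acute-phase protease inhibitor, had 94.2, 188, 135 and 764, a difference of 1.5, with all 4 signals above the floor. Saa3, an acute-phase apolipoprotein gene, had 123, 924, 40.2 and 1454 (1.06, and 0.78 with equal medians) but did not reach 2-fold between genotypes in either state. The cytokine gene Lta, lymphotoxin alpha, had 813, 256, 727 and 716 (1.64, and 0.82 when all its probe sets were averaged). Prrc2a, which lies near Lta and Tnf in the histocompatibility region, had 587, 167, 596 and 623 (1.88, and 0.52 by its other probe set). The methyltransferase gene Mrm3 had 449, 110, 455 and 386 (1.79, but 0.13 by its other probe set). For Lta, Prrc2a and Mrm3 the wild-type TNF array was low and the other 3 lay within 2-fold of each other.

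Differences in both states were found in 10 larger and 7 smaller genes, and in all but 1 of the 17 the knockout was on the same side of the wild-type in both. The exception, the acetylcholine receptor subunit gene Chrne, had 329, 165, 136 and 412 (2.59, 1.3 by its other probe set, and 0.68 with the floor at the 60th percentile). The junction protein gene F11r had 4881, 2672, 195 and 292 (1.45, and 0.87 with that higher floor). The lipid phosphatase gene Plpp3 had 1521, 1645, 106 and 307 (1.43, and -0.04 with it). Extracellular superoxide dismutase Sod3 had 203, 135, 894 and 1704 (1.52, and 0.93 with it). F11r and Plpp3 were lower and Sod3 higher in knockout cells throughout. Among smaller responses the activin antagonist gene Fst had 470, 1840, 101 and 187 (-1.07, and -0.96 with quantile normalization), and Trim25, a ubiquitin ligase of RNA virus sensing, had 407, 1080, 178 and 224 (-1.07). Both were lower in knockout cells before TNF and lower still, relative to wild-type, with it.

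NF-kB subunits, IkB proteins and feedback inhibitors rose with TNF in both genotypes, 11 of 12 measured members in wild-type and 9 in knockout cells. None of the 12 had a called difference, which is little below the 3.66% of all measured genes for so short a list. The median difference was -0.30. With equal medians 2 of the 12 had a smaller response. The inhibitor gene Nfkbia had 585, 3626, 738 and 4357 (-0.07). Nfkbie, another inhibitor, had 253, 985, 192 and 1196 (0.68). The ubiquitin-editing enzyme gene Tnfaip3 had 12.1, 561, 11.2 and 461 (-0.28). The largest differences down were -0.85 for Tnfaip2 and -0.82 for Bcl3. Nfkbia, Nfkbie, Tnfaip3, Tnfaip2 and Bcl3 were chosen after their values were seen.

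The TNF receptor complex and its kinases had 1 call among 17 measured members, against 3.66% of all measured genes. Tradd, the adaptor of the TNF receptor, had 1225, 2411, 1803 and 1436 (-1.3), higher in knockout cells at the start and lower with TNF. The receptor gene Tnfrsf1a, chosen after its value was seen, had a difference of 0.10. For Xiap itself the signals were 239, 126, 181 and 120, a difference of 0.34, and its other probe set gave 0.30. The sources used here do not place these probe sets relative to the deleted part of Xiap, so these signals do not check the genotype.

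**Figure D4:**
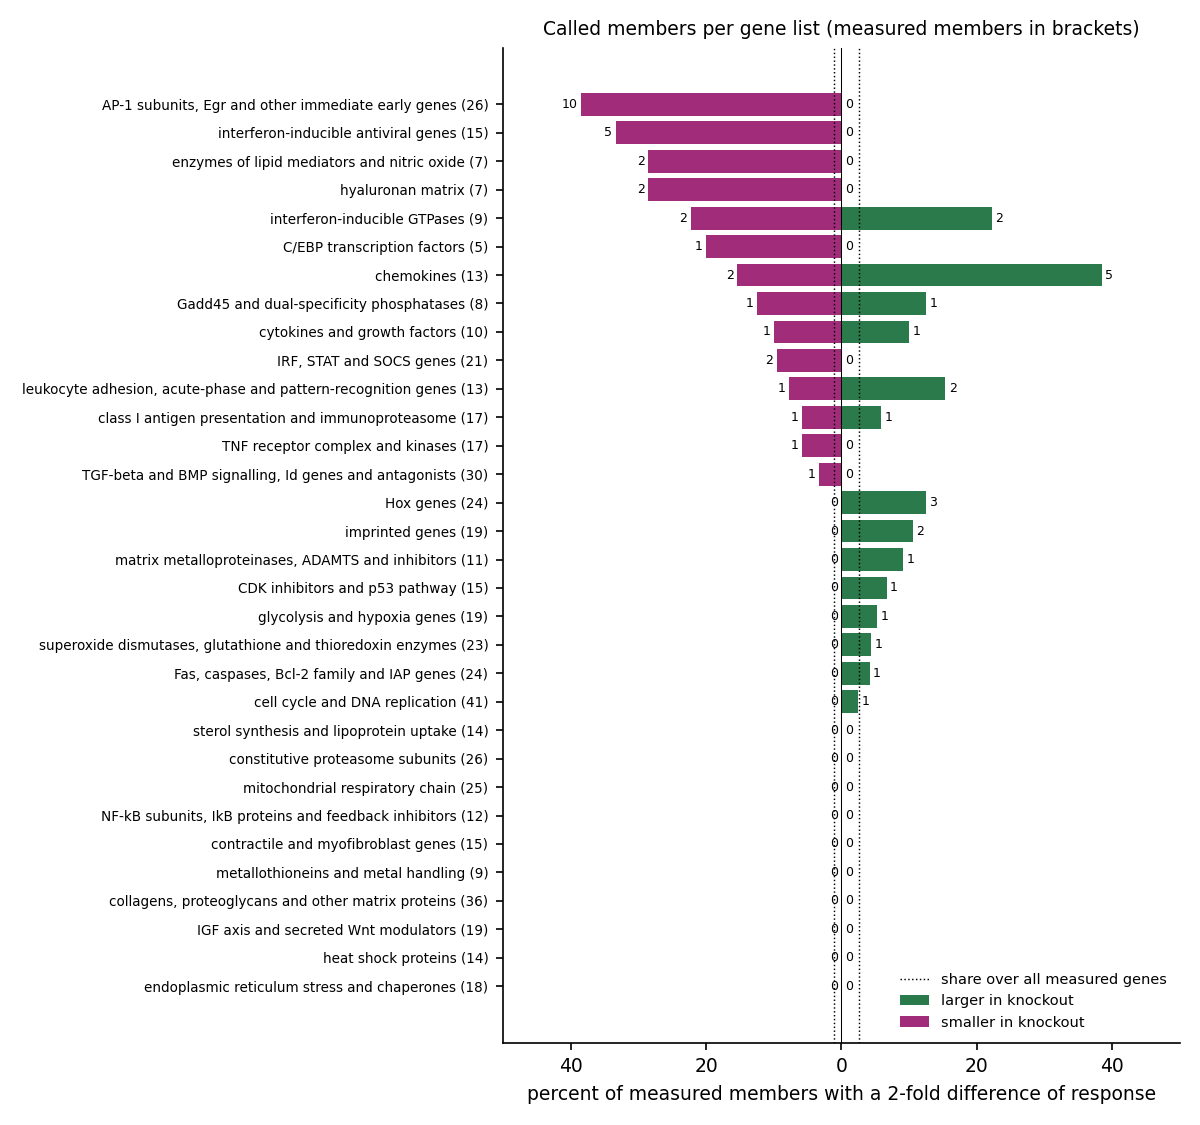
Percent of the measured members of each gene list with a 2-fold difference of response, larger in knockout cells to the right and smaller to the left, with counts at the bar ends and the share over all measured genes as dotted lines (2.53% and 1.13%). Immediate early genes (10 of 26) and antiviral genes (5 of 15) reach far to the left, chemokines (5 of 13) to the right, and 10 of the lists drawn, which leave out the cell type markers, have no called member.

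Several further lists had few or no calls. Over all measured genes 3.66% were called, so lists of this size would hold few or none at that share as well. None of 18 endoplasmic reticulum stress, 14 heat shock, 36 matrix, 15 contractile, 9 metallothionein, 25 respiratory chain, 26 proteasome, 14 sterol and 19 IGF and Wnt genes was called, and 1 of 41 cell cycle and 1 of 24 apoptosis genes was. The 1 apoptosis gene, Bnip3, a mitophagy receptor induced in hypoxia, had 235, 110, 725 and 757 (1.16, and 0.93 with equal medians). Of 19 imprinted genes Peg3 (1.25) and Peg10 (1.23) were larger, and of 15 p53 pathway genes Sesn1 (1.12). With the floor at the 60th percentile Peg3 was at -0.0065 and Peg10 at 0.01, the other probe sets of Peg3 gave 0.62 and 0.68, and Sesn1 was at 0.89 with equal medians. The Hox list had 3 larger responses among 24, all with knockout signals below the floor, and none under equal medians or quantile normalization.

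Markers of fibroblasts were present in all groups, with 10 to 12 of 13 above the floor and a summed signal of 71395 to 91664, and none was called. Leukocyte markers had 5 to 8 of 14 above the floor and a summed signal of 2273 to 3529, lowest in TNF-treated wild-type cells. The defining markers Ptprc and Adgre1 were below the floor on all 4 arrays, and the sum was mostly Cd14. Csf1r, the macrophage growth factor receptor gene, had 355, 114, 373 and 293 (1.29, and -0.06 with the floor at the 60th percentile). Cdh5 and Epcam, defining markers of endothelium and epithelium, were below the floor on all 4 arrays. Of 8 endothelial markers on the array, 4 were above the floor in unstimulated wild-type cells and 1 in each other group. Of 10 epithelial markers 1 was above it in every group, and of 10 muscle and adipocyte markers 3 to 5 were. The endothelial list had 1 call, the receptor gene Flt1 (155, 1172, 30.3 and 256), whose difference of -1.45 was 0.16 without a floor. The part of other cell types in the results was not tested.

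The direction of the calls depended on how the arrays were scaled. The median signal was 151 on the wild-type TNF array and 173 to 183 on the other 3. With the deposited common trimmed mean 69.0% of the 226 calls were larger, with equal medians 88 were larger and 147 smaller (37.4% larger), and with quantile normalization there were 102 of each (50%). The median difference over all measured genes was 0.04, -0.17 and 0.00 in the same order. Under the other scalings 69 of the 70 smaller responses kept their call. All 13 starting-level and all 39 TNF-treated-level genes among them kept their call and source. Under every scaling and floor tried, 5 of those 13 and 11 of those 39 kept the call. Of the 156 larger responses 85 kept their call under the other scalings, 49 of the 80 with a wild-type fall and 13 of the 17 with a knockout rise. Equal medians and quantile normalization both lowered the median difference, which favours keeping smaller calls and losing larger ones. Larger and smaller responses therefore cannot be compared by these counts.

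**Figure D5:**
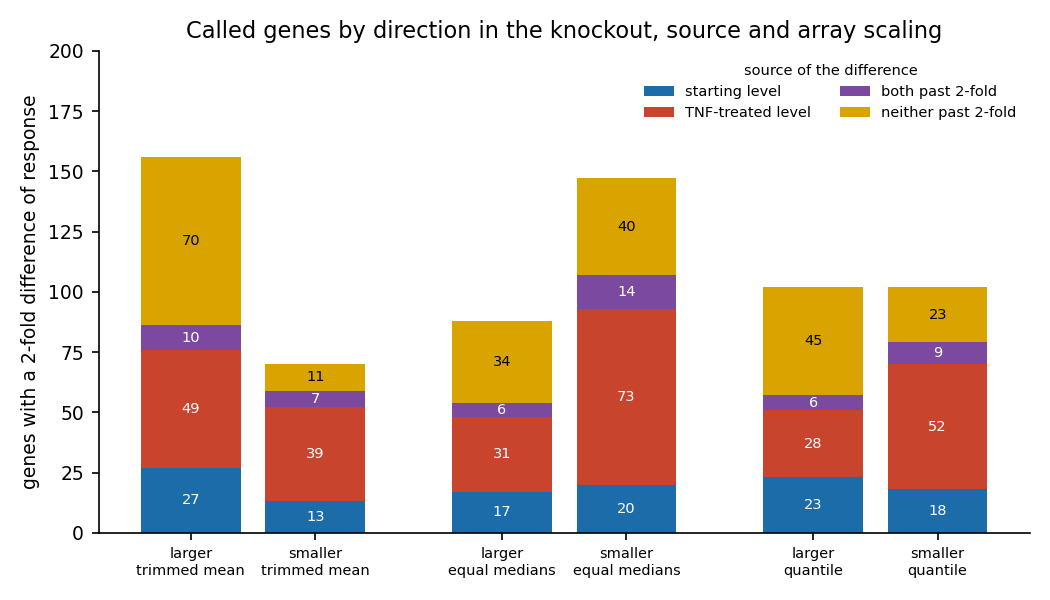
Number of genes with a larger or smaller response in knockout cells under 3 scalings of the arrays, divided by the source of the difference. The larger bar goes from 156 to 88 and 102, and the smaller bar from 70 to 147 and 102.

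Both larger and smaller responses were more frequent among dim genes. With measured genes divided by mean signal into 5 groups of equal size, from dimmest to brightest, 44, 64, 26, 16 and 6 genes had a larger response, and 20, 20, 11, 12 and 7 a smaller one. With quantile normalization the same groups had 28, 39, 14, 14 and 7 larger and 38, 29, 16, 12 and 7 smaller responses. The median mean signal was 228 for larger, 278 for smaller and 469 for all measured genes. Larger responses with a knockout rise had a median of 580 and those with a wild-type fall 212. A single array set apart from the other 3 by at least 2-fold, with those 3 within 2-fold of each other, carried 78 of the 226 calls. Among larger responses it was most often a low wild-type TNF array (23 genes) or a high unstimulated wild-type array (16). Among smaller ones it was a high wild-type TNF array in 26.

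Other probe sets of the same genes gave a partial check within the same arrays. Genes with a smaller response had 9 other measured probe sets, all 9 with the same sign and 3 past 2-fold. Genes with a larger response had 20, of which 15 had the same sign and 3 passed 2-fold. For larger responses with a wild-type fall none of 11 passed. Bacterial spike-in controls, added to each sample, had differences of -0.88 to 0.10 with a median of -0.37 over 9 probe sets. All 9 were lower on the TNF-treated than on the unstimulated knockout array (log2 ratios of -0.58 to -0.13). Between the wild-type arrays they went either way (-0.23 to 0.46). Several list medians above are of similar size, and whether this shift bears on them was not tested.

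Genes at the edge of the call lay close together. Just inside were Prl and Slc16a8 (both 1.00) and Nolc1 (-1.01) and Gfpt2 (-1.03). Just outside were Nynrin and Pcgf2 (both 0.99) and Ptger4 and Rpf2 (both -0.99). In all, 17 larger and 23 smaller responses kept their call under every scaling and floor tried. They include Ccl2, Dusp1, Fzd1, Serpina3n, Ccl5, Lta and Prrc2a among the larger and Ptgs2, Ch25h, Cebpd, Ptx3, Isg15, Jak2, Egr1, Myc, Sgk1, Plk2 and Ccn1 among the smaller. Averaging all probe sets of a gene, not part of that count, ended the call of Lta, Jak2 and Egr1.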

How the data were processed

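Groups were taken from the sample titles, 1 Affymetrix U74Av2 array each. The submitters' processing notes name MAS5 as the tool behind the deposited probe set intensities, which are linear and called signals here. The sources used here give neither version nor settings. All 4 deposited columns share a trimmed mean (2% left out at each end), so rescaling to it changed nothing. Of 12488 probe sets, 66 are controls, 396 have several symbols and 1193 none; these were left out of the gene counts. Where a gene had several probe sets, the brightest on average was used. Of 8251 genes, 8237 matched the RefSeq table. Signals were raised to a floor, the 40th percentile of pooled non-control signals, then log2-transformed. This understates the response of a dim gene within a genotype. The difference of 2 responses can become smaller, become larger or change sign through it, as for Ifit1 and Cxcl10. A call or source was settled where no value below the floor could alter it.

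Of 37 gene lists some share genes. Named genes were, per source and direction, the 6 largest settled differences, the same among genes raised by TNF, up to 3 called members of each list, Xiap, and the 2 genes on each side of the threshold. Members, lists and motifs were chosen with earlier results of these data known. The counting was tested on simulated data. Analyses used Python 3.11.15 with numpy 2.4.6 and pandas 2.3.3. Alternatives were other scalings, floors at the 20th or 60th percentile, no floor, a pseudocount of 50, other probe set rules, a 3-fold call, a source rule by share of the summed ratios and settled genes only. The number of arrays limits the precision.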

Additional observations from a re-analysis of the deposited data

Results flagged for a closer look

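In 8 of the genes named in the report or by its rule the signal moved up with TNF in one genotype and down in the other, by at least 0.5 on the log2 scale in each. Of all 226 called genes 26 did so. With 1 array per group the difference was not tested. The signal was lower with TNF in wild-type and higher in knockout cells for 6 genes. These are the acetylcholine receptor subunit gene Chrne (difference 2.59), the tyrosine catabolism gene Hpd (1.89), the brain proteoglycan gene Bcan (1.79), the phospholipase gene Pla2g4f (1.69), the superoxide dismutase gene Sod3 (1.52) and the junction gene F11r (1.45). Nsmaf, which encodes an adaptor of the TNF receptor, went the other way (-1.58). Its signals were 107 and 156 in wild-type and 222 and 108 in knockout cells. The transcription factor gene Runx1 did likewise (-1.49).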

How the results depend on the processing

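No paired analysis was possible because each group has 1 array. The main counts are 156 larger, 70 smaller, 40 starting-level and 88 TNF-treated-level genes, 80 larger with a wild-type fall, 54 smaller with a wild-type rise, and 78 set apart by 1 array. A floor at the 20th percentile gave 620, 224, 219, 323, 388, 109 and 355 in that order. A floor at the 60th percentile gave 34, 36, 18, 37, 13, 29 and 42. No floor gave 399, 127, 106, 206 and 264 for the first 5 and 192 set apart. A 3-fold call gave 23, 27, 7, 26, 6, 24 and 22. Equal medians gave 88 larger, 147 smaller, 36 with a wild-type fall and 104 smaller with a wild-type rise; quantile normalization gave 102, 102 and 39 for the first 3. Settled genes alone gave 41 smaller, 28 of them with a wild-type rise, and 48 set apart. The starting-level share was 17.7%, and it was 25.9% and 25.7% with the lower and higher floor and 23.5% when the source was set by its share of the summed absolute ratios. A pseudocount of 50, the mean of all probe sets and counting every probe set kept these counts within 1.5 times. Not rescaling could not alter them, because the arrays already shared a trimmed mean. Over 93 genes (72 by the rule and 21 chosen after their values were seen) 632 differences of response kept their side of 2-fold, 88 crossed it and 10 reversed: at the 60th percentile floor Csf1r -0.0603, Cyp7b1 -0.35, Peg3 -0.0065 and Plpp3 -0.0353, without a floor Cxcl10 0.70, Ifit1 1.80 and Flt1 0.16, and for Flt1 also 0.16 at the 20th percentile floor; Cxcl5 was at -0.6317 with either. The 632 include the differences without rescaling, which repeat the main ones and are no check. Calls near the floor are the ones low signal limits.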

Other observations

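Probe sets outside the gene counts also held differences of response. Of 1589 with several symbols or none, 774 were measured. In knockout cells 26 of these (3.36%) had a larger and 13 (1.68%) a smaller response. Over all measured genes the shares were 2.53% and 1.13%. Of 171 measured genes on the X chromosome, which carries Xiap, 5 had a called difference; 226 of 6174 (3.66%) did over all measured genes.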
